A study of Mus musculus with 22 samples.

Results

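Mouse embryonic stem cells (ESCs) of the aMHC-puro line, taken at day 0 of cardiomyocyte differentiation and titled aMHC (3 samples), were compared with 3 ESC samples titled RA, whose description reads untreated at T=0. The 6 samples were chosen by their titles and are 6 of 22 in the series. The study counted 72 H/ACA small nucleolar RNA (snoRNA) features with a custom NanoString nCounter code set, in which colour-coded probes hybridised to RNA are counted without amplification. The other 16 samples come from further cell types, from cardiomyocytes and from another set of 3 ESC samples.

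The labels name E14Tg2a as the ESC strain of the series, and do not say whether the aMHC-puro line was made from it, whether it is a single clone or what its construct drives. The name of the line and the puromycin selection of cardiomyocytes given in the treatment protocol are all that the labels tell of it. All of these ESCs were cultured under the same stated conditions, and total RNA was taken with Trizol, treated with DNase and cleaned on columns. For the ESCs titled RA, the title, the source and the treatment field say retinoic acid, and the description says untreated. For the remaining set of 3 ESC samples, titled ESC, the title and source name no treatment and the description says retinoic acid at T=6. The sets are therefore called by their titles below, and no sample was given a retinoic acid status from its values. The labelled cell type could not be checked against marker genes, since the table holds snoRNAs only.

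H/ACA snoRNAs pair with ribosomal or other RNAs and direct a protein complex, with dyskerin as the enzyme, to convert a chosen uridine to pseudouridine. Most are cut from introns of host genes that encode ribosomal proteins, translation factors or non-coding RNAs, so that their supply depends on transcription and splicing of the host and on protection of the excised RNA by the complex. A few members, among them Snora73a (U17) and Snora74a (U19), act in cleavage and processing of the ribosomal RNA precursor. The roles given below for single guides are those of the human orthologues.

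Values are normalized counts as deposited. The 6 samples held 1364612 to 1621106 normalized counts in total, and single features ran from 16.02 to 157403.5 normalized counts. Within each sample every value was a whole multiple of 1 factor (tolerance 0.02), which gave 1310276 to 1547009 whole counts. Counting error was thus small for abundant features, where the spread between samples set the precision. It was not small for the features with the lowest counts. Of the 72 features, 34 matched a gene symbol and 38 are named by transcript ID. Separate cultures are not stated for the replicates, so a p-value here is set against a spread that may be only technical. In bulk samples fewer cells with a snoRNA and less of it per cell cannot be told apart, and probes for near-identical copies may capture each other's RNA.

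The snoRNA profile of the aMHC line at day 0 lay as close to the ESCs titled RA as replicates lay to each other. Profiles were compared by the root mean square of the log2(value + 1) differences over 72 features. Between aMHC and RA-titled samples this distance was 0.18 to 0.64, with a mean of 0.41 over 9 pairs. Replicates of the aMHC line differed from each other by 0.25 to 0.54, with a mean of 0.42 over 3 pairs, and replicates titled RA by 0.35 to 0.47, also with a mean of 0.42. The distances between both groups thus covered the range found within them: 2 of the 9 pairs were closer than the closest of the 6 replicate pairs, and 2 were farther apart than the farthest. Pearson's r across the 72 features was 0.985 to 0.999 between the groups, 0.984 to 0.997 within the aMHC line and 0.988 to 0.995 within the ESCs titled RA. These r values describe features counted in the same samples, which are not independent.

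The closest of these pairs was aMHC replicate 2 with RA-titled replicate 2. Their distance was 0.18, their largest difference in any feature 0.52 on the log2 scale, and 0 of the 72 features differed by more than 1.5-fold. The chi-square of their whole counts was 51.3 per degree of freedom, and the most alike pair of replicates gave 163. No repeat hybridisation of 1 RNA is stated to set this against, so the chi-square does not show how the samples were obtained. They were counted as separate samples because the labels name them so.

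**Figure D1:**
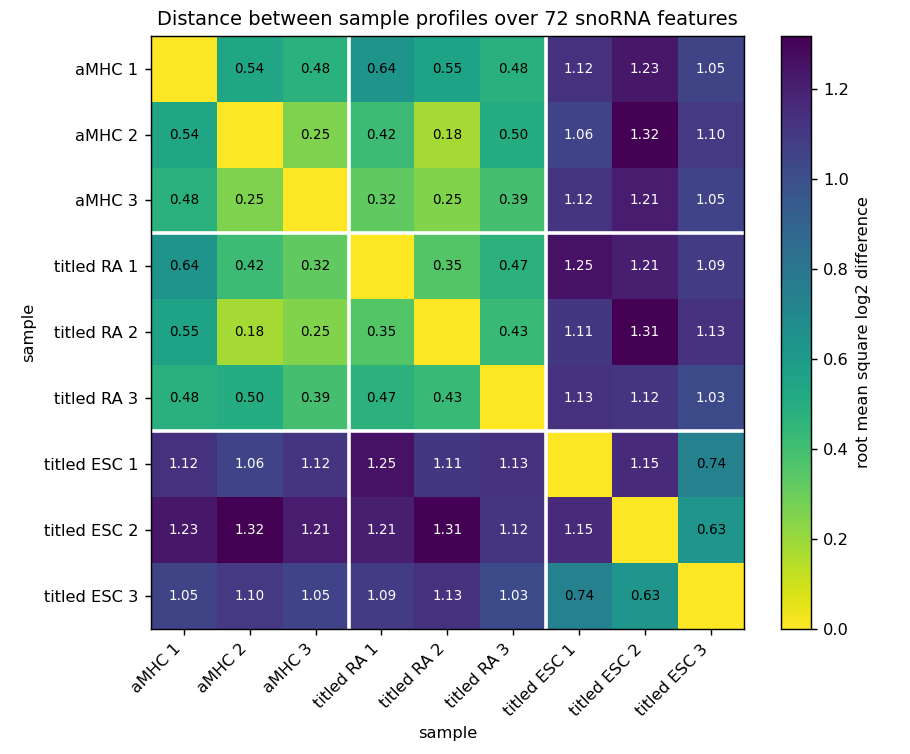
Distance between the profiles of 9 ESC samples (rows and columns), as the root mean square log2 difference over 72 features, with lighter or darker cells keyed by the colour bar. Pairs of an aMHC sample and a sample titled RA lie between 0.18 and 0.64, and pairs of an aMHC sample and a sample titled ESC between 1.05 and 1.32.

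The ESCs titled ESC lay farther off. Their distance to aMHC samples was 1.05 to 1.32, with a mean of 1.14 over 9 pairs, and Pearson's r was 0.918 to 0.940. From the mean aMHC profile, the 3 samples titled RA lay 0.40, 0.26 and 0.38 away, and the 3 titled ESC lay 1.07, 1.23 and 1.04 away. All RA-titled samples were nearer to the aMHC line than any sample titled ESC. The means were 0.35 ± 0.077 (SD, n = 3) and 1.11 ± 0.10 (SD, n = 3), and the difference of 0.76 had a two-sided exact permutation p of 0.1, the smallest that 3 against 3 samples can give. Samples titled ESC also differed more among themselves, by 0.63 to 1.15.

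A projection added after the data were seen placed each sample between the mean profile of the ESCs titled RA, at 0, and that of the ESCs titled ESC, at 1. The aMHC samples fell at 0.12, 0.0077 and 0.021. When each RA-titled sample was left out of its own mean, it fell at -0.0100, -0.033 and 0.16, and the samples titled ESC fell at 0.70, 0.82 and 0.97. All 3 aMHC samples lay above RA-titled replicates 1 and 2 and below RA-titled replicate 3, and so within the span of the RA-titled samples. None reached the span of those titled ESC. Which of the contradicting label fields is right was not tested by this, and the line, its culture and any treatment cannot be told apart in it.

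No snoRNA passed the test between the aMHC line and the ESCs titled RA. With limma on log2(value + 1) and Benjamini-Hochberg adjustment, 0 of 72 features passed an adjusted p of 0.05 (0%), the lowest adjusted p was 0.41, and no other tool was run. Without adjustment, 4 features (5.56%) had a limma p under 0.05, all higher in the aMHC line. No feature differed by 2-fold and 2 differed by more than 1.5-fold, with log2 differences from -0.25 to 0.66. The 95% interval of the difference lay inside a 2-fold change in either direction for 60 of the 72 features, and the median width of the interval was 0.81 on the log2 scale. For the other 12 features these samples leave room for a change of that size.

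The differences leaned one way. Of the 72, 63 were above 0, and the median log2 difference was 0.21. Summed signal was 1565842 ± 63545 normalized counts in the aMHC line and 1400970.3 ± 56744 in the ESCs titled RA (SD, n = 3 each), a ratio of 1.12 without overlap and with an exact two-sided permutation p of 0.1, again the smallest possible. The factor by which the deposited values exceed whole counts was 1.12 ± 0.069 in the aMHC samples and 1.05 ± 0.046 in those titled RA. In whole counts the totals overlapped, with a ratio of 1.04 and an exact two-sided permutation p of 0.8. The lean was thus smaller without the factor, and the part of the factor in it was not tested.

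The groups did not overlap for 27 of 72 features (37.5%), all higher in the aMHC line. After each sample was centred on its median feature, 2 features (2.78%) did not overlap, 1 in each direction, and the median difference was 0.03. In whole counts 7 features (9.72%) did not overlap, 5 higher and 2 lower. Levels of single features are given below as deposited, and an aMHC excess of about the median difference is shared by most of the table.

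**Figure D2:**
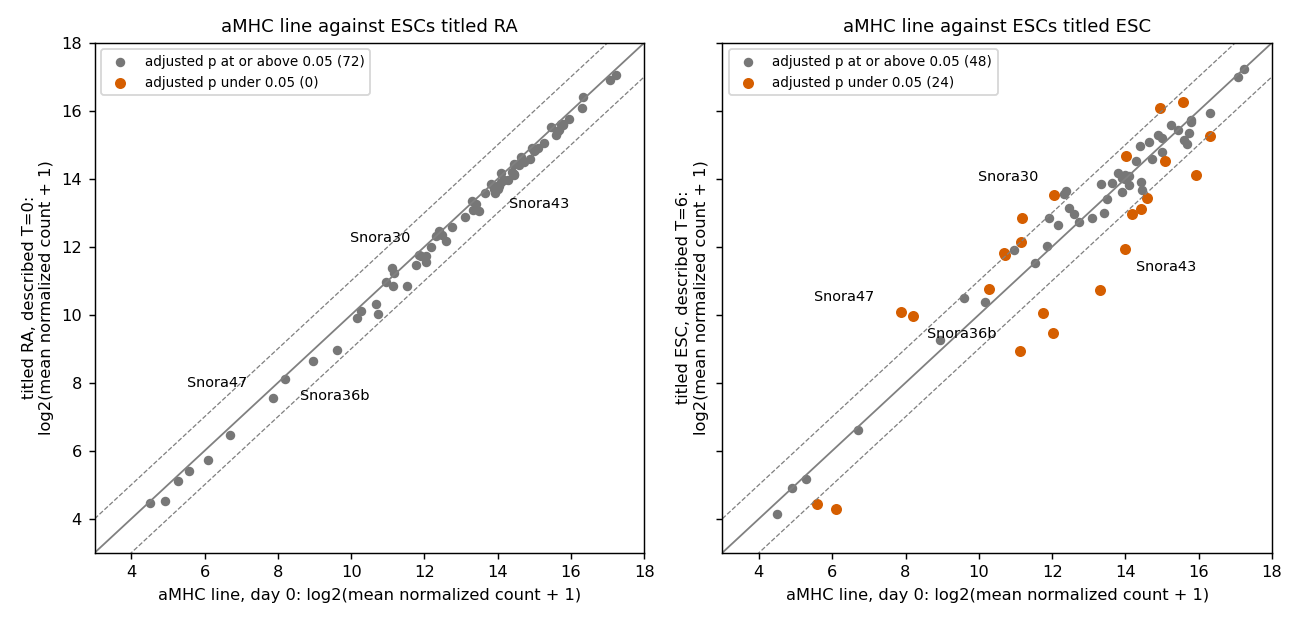
Mean level of each of 72 features in the aMHC line (horizontal axis, log2 of the mean normalized count + 1) against the ESCs titled RA (left, vertical axis) and titled ESC (right), with the diagonal and dashed lines for a 2-fold difference. Orange points, 0 on the left and 24 on the right, have a limma adjusted p under 0.05.

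Among the snoRNAs that act in precursor processing, Snora73a was counted at 157403.5, 124611 and 127285 in the aMHC line and at 123032, 119067 and 125976 in the ESCs titled RA. Replicate 1 of the aMHC line was high, and the other aMHC samples lay beside the RA-titled ones, with overlap. The log2 difference was 0.15 (95% interval -0.16 to 0.45), and it turned to -0.030 after median centring and was 0.038 without aMHC replicate 1. Snora74a was counted at 59897, 55741 and 53747 in the aMHC line and at 48422, 48317 and 50855 in the ESCs titled RA. All aMHC samples were higher, and the log2 difference was 0.20 (95% interval -0.05 to 0.45), about the median of the table.

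Of the 20 guides of 18S ribosomal RNA listed, 8 were in the table. All 8 differences were above 0, with a median of 0.23, 0 passed the test and 3 did not overlap. Over the whole table the median was 0.21 and 27 of 72 did not overlap (37.5%), so these counts show nothing particular to the 18S guides. Snora15, an 18S guide in an intron of the chaperonin gene Cct6a, was counted at 21811, 22143 and 22441.5 in the aMHC line and at 16878, 19256 and 17376 in the ESCs titled RA. The groups were apart, with little spread inside the aMHC line. Its log2 difference was 0.31 (95% interval 0.06 to 0.57), with a limma p of 0.023 and an adjusted p of 0.41, the only one of the 34 with a symbol under 0.05 before adjustment.

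Snora36b, an 18S guide in Rab3gap2, was counted at 232.6, 346.9 and 301.9 in the aMHC line and at 234.2, 283.1 and 312.0 in the ESCs titled RA. The groups overlapped throughout, and the log2 difference of 0.08 (95% interval -0.37 to 0.53) turned to -0.10 after median centring. Snora28, an 18S guide in the initiation factor gene Eif5, was counted at 23982, 35612 and 34718 in the aMHC line and at 28321, 31945 and 31115 in the ESCs titled RA. The aMHC samples lay on both sides of the RA-titled ones. The log2 difference was 0.02 (95% interval -0.40 to 0.45), and it was -0.15 after median centring.

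Snora24, an 18S guide in the non-coding host Snhg8, was counted at 79329, 81387 and 80493 in the aMHC line and at 77933, 81089.8 and 48339.8 in the ESCs titled RA. RA-titled replicate 3 was low and the other 5 samples were alike. The log2 difference was 0.26 with an interval of -0.25 to 0.76.

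Among guides of the large subunit RNA, 21 of the 30 listed were in the table, with Snora74a, given above, among them. Of these, 19 had a difference above 0, the median was 0.20, 0 passed the test and 8 did not overlap, against 27 of 72 (37.5%) over the whole table. Snora43, a 28S guide in the non-coding host Snhg7, was counted at 19617, 14427 and 15040.3 in the aMHC line and at 13893, 14121 and 13912 in the ESCs titled RA. All aMHC samples were higher, the first by most. The log2 difference was 0.21 (95% interval -0.13 to 0.56), or 0.076 without aMHC replicate 1.

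Snora30, a 28S guide in the chromatin remodelling gene Srcap, was counted at 5313, 3609 and 3746 in the aMHC line and at 3370.4, 3375 and 3352 in the ESCs titled RA. The RA-titled samples lay within a narrow band and all aMHC samples lay above it. The log2 difference was 0.30 (95% interval -0.10 to 0.71), or 0.13 without aMHC replicate 1. Snora52, a 28S guide in the ribosomal protein gene Rplp2, was counted at 27494, 23298 and 23151 in the aMHC line and at 21859, 21221 and 21461 in the ESCs titled RA. The groups were apart by less than the spread of the aMHC samples, and the log2 difference was 0.19 (95% interval -0.09 to 0.47). It was 0.017 after median centring, -0.0051 after mean centring and 0.11 without aMHC replicate 1.

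Snora33, a 28S guide in Rps12, was counted at 28899, 19584 and 17769.8 in the aMHC line and at 13676, 18873 and 21709 in the ESCs titled RA. Both groups were wide and overlapped, and the log2 difference was 0.28 (95% interval -0.31 to 0.87), or 0.071 without aMHC replicate 1 and 0.093 without RA-titled replicate 1. Snora64, a 28S guide in Rps2, was counted at 16059, 16637 and 16224 in the aMHC line and at 10696, 17019.99 and 12171 in the ESCs titled RA. The aMHC samples were tight while RA-titled replicates 1 and 3 lay below them and replicate 2 above, and the log2 difference was 0.32 (95% interval -0.12 to 0.76), or 0.18 without RA-titled replicate 1 and 0.51 without replicate 2.

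Snora16a, a 28S guide in the non-coding host Snhg12, was counted at 69233.5, 88160.4 and 88096 in the aMHC line and at 87272, 87113 and 87647 in the ESCs titled RA. Only aMHC replicate 1 stood apart, below the rest, and the log2 difference was -0.10 (95% interval -0.42 to 0.21). The abundant 28S guides Snora31, in Tpt1, and Snora26, in the non-coding gene Dancr, differed by 0.01 and 0.14 on the log2 scale, with intervals of -0.34 to 0.35 and -0.29 to 0.57. Both are among the 5 smallest differences of features with a symbol and a mean level above that of the median feature, and features known by ID were not ranked with them. After median centring they were at -0.17 and -0.035.

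Snora69, a ribosomal RNA guide in Rpl39, was counted at 11955, 17296 and 13703 in the aMHC line and at 9865, 16375 and 17801 in the ESCs titled RA. The groups overlapped fully, and the log2 difference was -0.0071 (95% interval -0.63 to 0.61). Snora47, in an intron of Zbed3, was counted at 268.3, 206.0 and 229.0 in the aMHC line and at 181.2, 174.9 and 203.1 in the ESCs titled RA. All aMHC samples were higher, the lowest by a small margin, and the log2 difference was 0.32 (95% interval -0.01 to 0.66) with a limma adjusted p of 0.41.

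By host gene, the 11 snoRNAs in ribosomal protein genes had a median log2 difference of 0.20 between the aMHC line and the ESCs titled RA, with 9 above 0 and 5 without overlap. The 8 in non-coding hosts had a median of 0.18, with 7 above 0 and 3 without overlap. The 4 in translation factor genes, among which Tpt1 was counted, had a median of 0.12, with all 4 above 0 and 0 without overlap. The 10 in other hosts had a median of 0.27, with all 10 above 0 and 5 without overlap. Snora78, whose host is annotated as Rps2 and also as Snhg9, differed by 0.079 with overlap. Over the whole table the median was 0.21, with 63 of 72 above 0 and 27 of 72 (37.5%) without overlap. In each class 0 passed the test, and no difference between classes was tested.

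The 38 features known by ID had the same median, 0.21, with 32 above 0 and 14 without overlap, a share close to the 37.5% of the whole table. The widest differences of the table were among them: ENSMUST00000083719.1:3 differed by 0.66 and ENSMUST00000157338.1:0 by 0.65 on the log2 scale, the latter with a limma p of 0.0093 and an adjusted p of 0.41. Blank in 10 samples of other cell types are 5 features, Snora35 and 4 of those known by ID. In the aMHC line these 5 held 18.9 to 82.9 normalized counts and in the ESCs titled RA 16.0 to 65.1, with a median log2 difference of 0.21 and 0 without overlap.

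**Figure D3:**
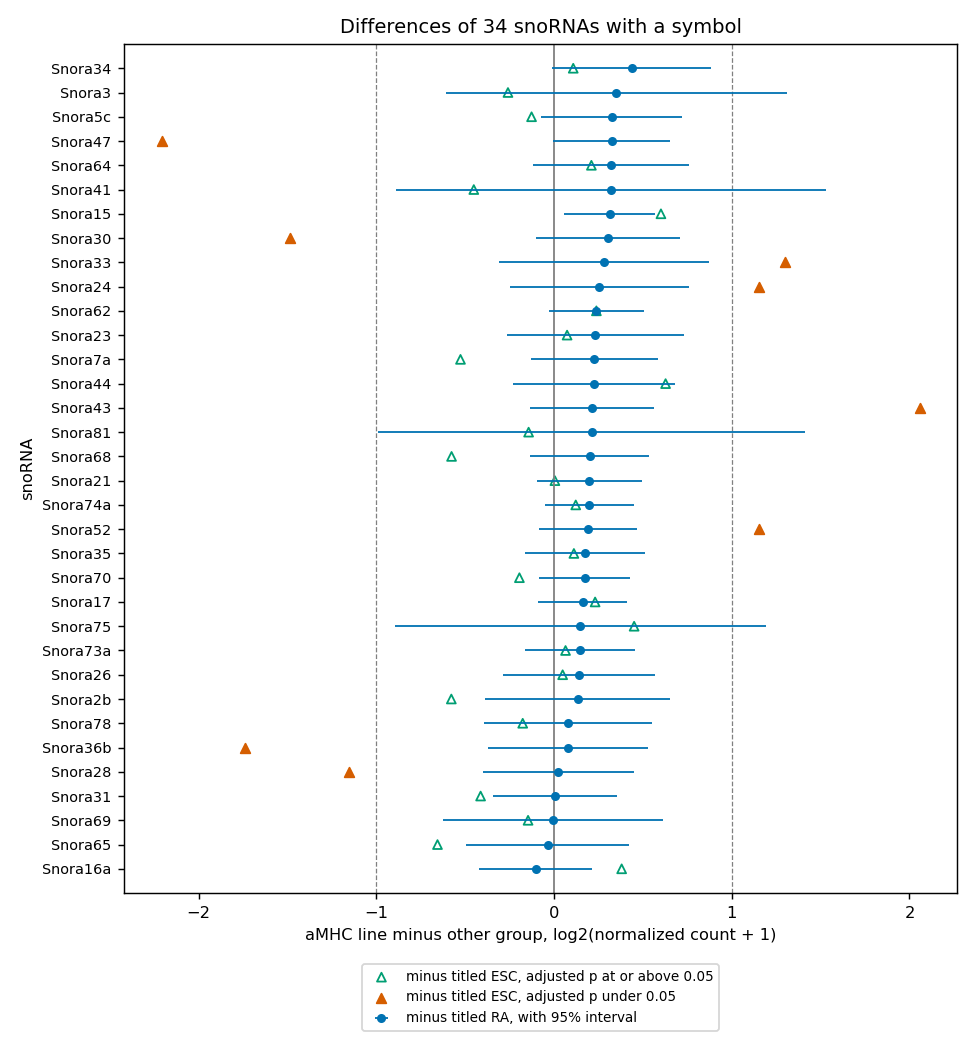
Difference of the aMHC line from each other ESC group for the 34 snoRNAs with a symbol, on the log2(normalized count + 1) scale, with a solid line at 0 and dashed lines at a 2-fold difference. Blue points with 95% intervals are the differences from the ESCs titled RA, and triangles those from the ESCs titled ESC, filled where the limma adjusted p was under 0.05.

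Some snoRNAs spread widely over the replicates of both groups. Snora41, an 18S guide in the elongation factor gene Eef1b2, was counted at 11051, 4275.5 and 3302 in the aMHC line and at 2882, 4153 and 6703 in the ESCs titled RA. Replicate 1 was far above the others in the aMHC line, as replicate 3 was in the ESCs titled RA. The log2 difference between groups was 0.32 with an interval of -0.89 to 1.53, too wide to judge a 2-fold change.

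Snora3, a 28S guide in Rpl27a, had the same form, at 29535, 15637 and 14654 in the aMHC line and at 9408, 14735 and 23509.7 in the ESCs titled RA. Snora81, a 28S guide in Eif4a2, went the opposite way, at 23507, 61065 and 32295 in the aMHC line and at 41648, 45121 and 15848 in the ESCs titled RA. Here aMHC replicate 1 and RA-titled replicate 3 were the lowest of their groups. Snora75, a 28S guide in the nucleolin gene Ncl, was counted at 9121, 18059.8 and 11101 in the aMHC line and at 10230.5, 19818 and 6631 in the ESCs titled RA, again lowest in those same samples.

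Of the 10 features with the widest range in each group, 5 were shared by the aMHC line and the ESCs titled RA, namely Snora3, Snora41, Snora75, Snora81 and 1 feature known by ID, and 2 were shared by all 3 ESC groups. The departures of aMHC replicate 1 and of RA-titled replicate 3 from the other replicates of their group had a Pearson's r of 0.59 over the 72 features. This describes 2 samples that were picked for standing apart. A range above 1 on the log2 scale was found for 5 features in the aMHC line, 6 in the ESCs titled RA and 23 in the ESCs titled ESC. The median SD of a feature over replicates was 0.21, 0.13 and 0.26 on the log2 scale in the same order. What set the departures was not tested.

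**Figure D4:**
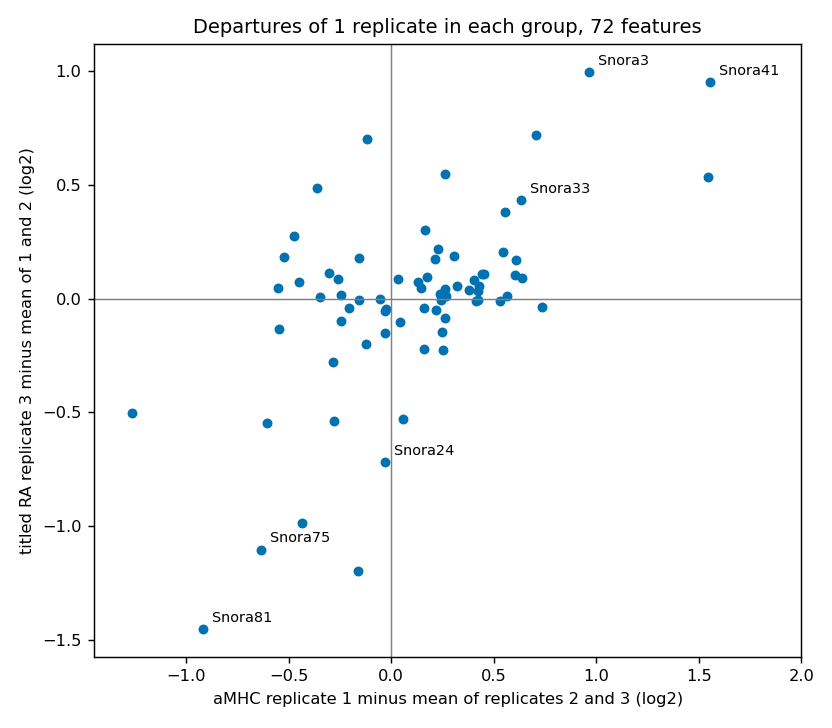
Departure of aMHC replicate 1 from the mean of aMHC replicates 2 and 3 (horizontal axis, log2) against that of RA-titled replicate 3 from the mean of replicates 1 and 2 (vertical axis, log2), 1 point for each of 72 features. Snora41 and Snora3 lie high in both departures, Snora81 and Snora75 low in both, and Snora24 is low in RA-titled replicate 3 only.

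The same aMHC samples differed from the ESCs titled ESC in 24 of 72 features by limma (33.3%), 13 higher (18.1%) and 11 lower (15.3%) in the aMHC line, or 11 higher and 15 lower after median centring. Without adjustment 30 features (41.7%) had a limma p under 0.05. The groups did not overlap for 38 features (52.8%), with the aMHC line higher for 21 (29.2%) and lower for 17 (23.6%). The median log2 difference was 0.03, against -0.29 after median centring, the range -2.21 to 2.84, and 22 features were past 2-fold. This comparison and that with the ESCs titled RA share the aMHC samples, so their values are given side by side. Of the 24 features, 21 had an interval inside 2-fold between the aMHC line and the ESCs titled RA, against 60 of 72 over the whole table. The count is thus not particular to the 24. The difference between both contrasts is the contrast of both other groups. In that limma fit, added after the data were seen, 21 of the 24 also passed in the same direction (33 of 72 passed, 45.8%). It uses the same samples titled ESC that picked the 24, so this count is no separate support for them.

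Of the features that passed, those lower in the aMHC line were Snora47, Snora36b, Snora30 and Snora28, and 7 known by ID. Snora47 was counted at 1220.4, 907.4 and 1134 in the ESCs titled ESC, all far above the aMHC line at 206.0 to 268.3. Its log2 difference was -2.21 ± 0.19 (SE), 4.61-fold lower, with a limma adjusted p of 0.00049, where the difference from the ESCs titled RA was 0.32. Snora36b was counted at 1256.5, 771.2 and 946.1 in the ESCs titled ESC, again without overlap. It was 3.34-fold lower (log2 difference -1.74 ± 0.25, limma adjusted p 0.0042), against 0.08 from the ESCs titled RA.

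Snora30 was counted at 10392, 11059 and 13743 in the ESCs titled ESC, above every aMHC sample. It was 2.80-fold lower in the aMHC line (log2 difference -1.49 ± 0.22, limma adjusted p 0.0042). Snora28 was counted at 79405, 67763 and 60468 in the ESCs titled ESC, all above the aMHC line. It was 2.22-fold lower (log2 difference -1.15 ± 0.22, limma adjusted p 0.010), against 0.02 from the ESCs titled RA.

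Of the features that passed, those higher in the aMHC line were Snora43, Snora33, Snora52 and Snora24, and 9 known by ID. Snora43 was counted at 3960.4, 3583.5 and 4161 in the ESCs titled ESC, far below the aMHC samples at 14427 to 19617. It was 4.16-fold higher in the aMHC line (log2 difference 2.06 ± 0.18, limma adjusted p 0.00049). Snora33 was counted at 10329, 6984 and 9371 in the ESCs titled ESC, below every aMHC sample, and was 2.46-fold higher in the aMHC line (log2 difference 1.30 ± 0.26, limma adjusted p 0.010).

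Snora52 was counted at 11717, 9861 and 11598 in the ESCs titled ESC. These values lay well below those of the aMHC line, where Snora52 was 2.23-fold higher (log2 difference 1.16 ± 0.16, limma adjusted p 0.0042). Snora24 was counted at 62824.5, 26708 and 28241 in the ESCs titled ESC. The first of these lay nearer to the aMHC line than the others did, without overlap. Snora24 was 2.22-fold higher in the aMHC line (log2 difference 1.15 ± 0.35, limma adjusted p 0.046). That call was lost in 5 of 6 limma fits that left out 1 sample, with adjusted p from 0.094 to 0.14. The contrast of the ESCs titled RA with those titled ESC gave 0.90 with a limma adjusted p of 0.13. The widest differences belonged to features known by ID: ENSMUST00000104376.1:24 was 7.15-fold and ENSMUST00000083331.1:0 was 6.04-fold higher in the aMHC line than in the ESCs titled ESC. From the ESCs titled RA the same features differed by 0.52 and -0.04 on the log2 scale.

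**Figure D5:**
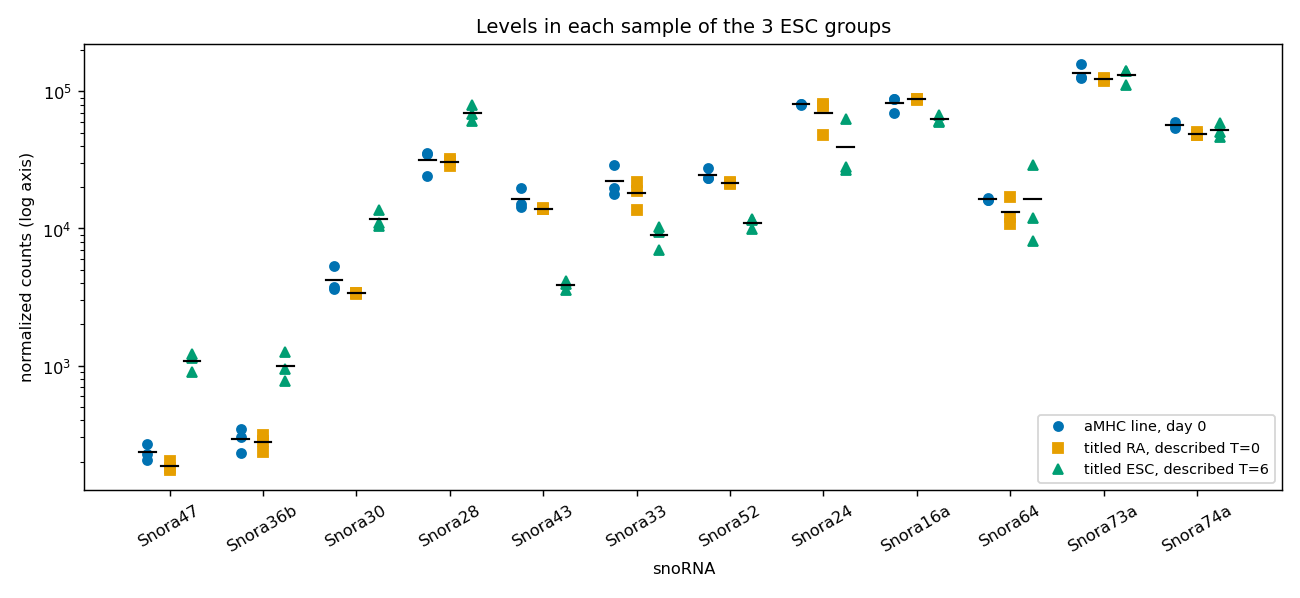
Normalized counts (log axis) of 12 snoRNAs in each sample of the aMHC line, the ESCs titled RA and the ESCs titled ESC, with a black bar at each group mean. For Snora47, Snora36b, Snora30 and Snora28 the samples titled ESC lie above those of the other groups and for Snora43 below them, while aMHC and RA-titled samples lie side by side.

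SnoRNAs annotated to the same host gene were set against each other within each sample, which removes any factor shared by the sample. Snhg7 holds Snora43 and the 28S guide Snora17. The log2 ratio of Snora43 to Snora17 was -0.84, -1.12 and -1.10 in the aMHC line and -1.04, -1.06 and -1.11 in the ESCs titled RA. The groups overlapped, and the means differed by 0.05 (exact two-sided permutation p 0.9, n = 3 each). In the ESCs titled ESC the ratio was -2.92, -2.83 and -2.79, below every aMHC sample, a difference of 1.83 with an exact two-sided permutation p of 0.1, the smallest possible. The log2 ratio of 2 probes gives no order of their levels and is used here only between samples.

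The start of Snhg7 is shown since both snoRNAs share it while their ratio differed between samples. The RefSeq promoter (GRCm38.p6, chr2:26640195-26640494, minus strand, 250 bases before to 50 after the start) holds TATAAA once on the forward strand, in capitals, and not on the reverse strand. The letters CCAAT are on neither strand. Of 32851 promoters of this length, 13.6% hold TATAAA and 37.4% hold CCAAT on either strand, and a match is a description of the letters alone.
Snhg7 promoter: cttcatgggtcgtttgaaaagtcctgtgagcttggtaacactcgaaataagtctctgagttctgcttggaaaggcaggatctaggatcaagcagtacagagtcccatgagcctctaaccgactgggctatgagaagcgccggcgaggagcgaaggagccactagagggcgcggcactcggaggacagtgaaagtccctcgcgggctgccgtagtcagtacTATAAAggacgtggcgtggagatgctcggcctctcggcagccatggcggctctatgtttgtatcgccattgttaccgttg

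In 4 such host pairs no ratio separated the aMHC line from the ESCs titled RA. The log2 ratio of Snora44, an 18S guide, to Snora16a, both in Snhg12, was -0.03, -0.998 and -0.97 in the aMHC line and -1.08, -1.02 and -0.89 in the ESCs titled RA. Only aMHC replicate 1 stood apart, in which Snora44 was high and Snora16a low (difference of means 0.33, exact two-sided permutation p 0.5). The ratios of Snora34 to Snora2b in Kansl2 and of Snora64 to Snora78 in Rps2 differed by 0.30 and 0.24, with exact two-sided permutation p of 0.5 and 0.6. Snora78 is annotated to Snhg9 as well, so a shared transcript is not shown for the Rps2 pair. In Kansl2 the ratio was 1.61, 0.69 and 0.75 in the aMHC line, with replicate 1 again apart, and 0.80, 0.60 and 0.74 in the ESCs titled RA. Against the ESCs titled ESC, at 0.045, 0.57 and 0.37, the mean Kansl2 ratio was 0.69 higher in the aMHC line, with aMHC replicate 1 raising the mean. The groups did not overlap, by a narrow margin (exact two-sided permutation p 0.1, the smallest possible). The Snhg12 and Rps2 ratios differed there by 0.25 and 0.39, both with an exact two-sided permutation p of 0.7.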

How the data were processed

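The deposited table holds a non-negative signal for 72 features, called normalized counts here; how the authors normalized it, their software and their treatment of background are not given in the sources used here. Names of features were taken from the RefSeq table of GRCm38.p6 (34 matched), without coordinates for the data. Groups follow the sample titles. Members, lists and tests were chosen with earlier results of these data known.

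Values were taken as log2(value + 1) with no further scaling or filter. Linear models of the 6 samples of each comparison used limma 3.58.1 (two-sided moderated tests from eBayes, under R 4.3.3), with Benjamini-Hochberg adjustment over 72 features and a threshold of 0.05. The fit was checked on simulated data with known changes in independent noise. These data held no factor shared by a sample, and no result given here rests on that check. Single values per sample were compared by exact two-sided permutation tests in SciPy 1.17.1. Named snoRNAs are a fixed set of 12 and the 5 abundant ones with the smallest difference. Of the 10 called with the largest difference, those with a symbol and the widest known by ID are named, and the rest are not. Further members, such as Snora15 and the most variable, were named after their values were seen. Alternatives were other scalings, pseudocounts, a mean filter, more groups, a variance trend, replicate blocks and leaving out samples.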

Additional observations from a re-analysis of the deposited data

How the results depend on the processing

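The count of features differing between the aMHC line and the ESCs titled RA was 0 under every alternative run with limma, with 1 to 16 features under an unadjusted p of 0.05; 16 came without aMHC replicate 1. Count models were not run because the deposited unit is a normalized signal. Against the ESCs titled ESC the count of 24 was 22 to 32 under the alternative scalings, pseudocounts, filter, variance trend and added groups. It was 12 to 32 when 1 sample was left out: 12 without aMHC replicate 3, 15 without aMHC replicate 2, 15 without replicate 3 titled ESC. The difference in distance from the aMHC profile was 0.70 to 0.82 without 1 sample, and that of total signal 137240 to 199589 against 164872 with all. In whole counts the latter was 59992.

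Between the aMHC line and the ESCs titled RA, same-numbered samples deviated together for title number 2 (r of 0.68) and not for 1 and 3 (r of -0.29 and -0.30). Deviations from a mean of 3 samples depend on each other, so these r values cannot settle pairing. The numbers were not taken as pairing. With the replicate number of the title as a block, 0 and 14 features were called, and with the number of the description, of which each pair of groups shares 2, 0 and 0 (16 against the ESCs titled ESC without adjustment). That block kept 4 samples a comparison, and all 8 named calls were lost in it. With the title block Snora24 and Snora28 lost theirs, the latter at an adjusted p of 0.054 by limma. Snora16a passed against the ESCs titled ESC with 4 or 7 groups in the limma fit (adjusted p 0.047 and 0.034). Leaving out replicate 1 titled ESC likewise gave 1 named snoRNA a call that it lacked in the main fit.

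Some small differences changed sign. Between the aMHC line and the ESCs titled RA, median scaling gave Snora36b -0.10, Snora28 -0.15, Snora73a -0.030, Snora31 -0.17 and Snora26 -0.035. Mean scaling gave Snora36b -0.12, Snora28 -0.17, Snora52 -0.0051, Snora73a -0.051, Snora31 -0.19 and Snora26 -0.057. Quantile scaling gave Snora36b -0.17, Snora28 -0.057, Snora74a -0.036 and Snora31 -0.22. The description block gave Snora36b -0.029, Snora28 -0.041 and Snora31 -0.0043, and leaving out both replicates 1, chosen after seeing the data, gave Snora33 -0.12, Snora16a 0.012 and Snora26 -0.067. Without 1 sample the ranges were -0.051 to 0.24 for Snora36b, -0.076 to 0.21 for Snora28 and -0.088 to 0.11 for Snora31. They were -0.27 to 0.15 for Snora69, -0.16 to 0.013 for Snora16a and -0.048 to 0.26 for Snora26. Without a change of sign they were 0.13 to 0.41 for Snora30, 0.071 to 0.43 for Snora33, 0.18 to 0.51 for Snora64, 0.076 to 0.30 for Snora43, 0.11 to 0.23 for Snora52 and 0.038 to 0.21 for Snora73a. Against the ESCs titled ESC, median scaling gave Snora64 -0.11, Snora73a -0.26 and Snora74a -0.20, mean scaling Snora73a -0.033 and quantile scaling Snora64 -0.074. Without 1 sample the ranges there were -0.051 to 0.13 for Snora73a, -0.56 to 0.40 for Snora69 and -0.19 to 0.73 for Snora64. The cause of these changes was not tested.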
